A study of Mus musculus with 6 samples.

Results

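The 9 genes described here, Spo11, Dmc1, Meiob, Spata22, Msh4, Msh5, Mlh3, Prdm9 and Tex11, encode proteins that make, repair and resolve the programmed DNA breaks of meiosis. They were chosen by name, and each matched 1 of the 55711 entries of the deposited gene table. RNA was sequenced from 6 mouse testis libraries of the C57BL6 strain, 3 labelled Tmc7 knockout and 3 labelled heterozygote, which serve as the control. Tmc7 encodes a transmembrane channel-like protein, and the series title concerns the volume of elongated spermatids. The labels give neither the age of the mice, nor the construction of the allele, nor whether each library came from a separate animal, so p-values measure the spread between these libraries, which may be technical in part. The controls carry 1 mutant allele by their label, so no wild-type testis is in the comparison.

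In meiotic prophase, homologous chromosomes are joined by recombination. PRDM9 marks hotspots by methylating histone H3, and SPO11 cuts the DNA there. The cut ends are trimmed to single strands, which MEIOB and SPATA22 bind as a complex and on which DMC1, a meiosis-specific recombinase, carries out strand exchange with the homologue. TEX11 and the MSH4-MSH5 pair stabilise the joint molecules that are to become crossovers, and MLH3, an endonuclease subunit, helps to cut them into crossovers in pachytene. In the testis these events take place in spermatocytes, before the spermatid stages named in the title.

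Values are FPKM, fragments scaled per kilobase of gene length and to a library size set by the authors. Whole reads could be worked back from them. Summed over all entries, they came to 17397662 to 19343479 reads in the group labelled knockout and 17059486 to 18629233 reads in controls. The library sizes implied by the FPKM differed from these sums. They were 17341530 to 19497384 in the group labelled knockout and 16450310 to 19214472 in controls. The gap was widest in library 3 labelled knockout, with 18140921 reads for an implied size of 19497384. Tmc7 itself had 43.8, 41.9 and 35.1 FPKM in the libraries labelled knockout, against 39.1, 37.7 and 37.2 FPKM in controls, so its transcript level does not check the labels. Spermatocyte identity was well represented. All 16 entries of an early spermatocyte marker list and all 12 of a later spermatocyte list passed a mean of 0.5 FPKM. Of the 16, Sohlh1 was also an entry of the spermatogonia list. Summed levels of the early list were 700.0 to 817.6 FPKM in the libraries labelled knockout and 789.2 to 857.5 FPKM in controls. Libraries 2 and 3 labelled knockout stood apart from the other 4. Small and ribosomal RNA models took 0.335% and 0.281% of their reads, against 0.095% in library 1 labelled knockout and 0.1% to 0.105% in controls. They also had the lowest levels of the early and later spermatocyte, round spermatid and elongating spermatid marker lists and the highest of the Sertoli, leukocyte, peritubular myoid and endothelial lists.

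The promoters of 4 genes are shown, those of a hotspot-marking, a strand-exchange, a single-strand-binding and a crossover gene. Not every step is covered, as no start was matched for the break-making gene Spo11. They are RefSeq sequences on GRCm38.p6, 250 bases that end just before an annotated start, 5′ to 3′ on the gene's strand. Capitals mark matches, on either strand, to a MYB core (AACNGNC) or to an E2F site (GCGGGAA), and no 2 matches overlap. The windows are chr17:15564355-15564604 (minus strand) for Prdm9, chr15:79605110-79605359 (minus) for Dmc1, chr11:73329491-73329740 (plus) for Spata22 and chr12:85270600-85270849 (minus) for Mlh3.
Prdm9: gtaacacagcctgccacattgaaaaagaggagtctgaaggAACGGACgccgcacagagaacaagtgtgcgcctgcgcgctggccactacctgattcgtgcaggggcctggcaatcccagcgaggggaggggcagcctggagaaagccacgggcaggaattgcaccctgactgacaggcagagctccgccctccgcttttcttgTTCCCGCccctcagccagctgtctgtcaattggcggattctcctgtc
Dmc1: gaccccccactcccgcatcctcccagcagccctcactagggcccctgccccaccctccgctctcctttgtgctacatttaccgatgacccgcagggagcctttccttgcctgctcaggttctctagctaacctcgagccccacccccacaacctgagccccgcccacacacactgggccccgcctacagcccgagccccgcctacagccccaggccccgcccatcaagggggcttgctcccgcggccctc
Spata22: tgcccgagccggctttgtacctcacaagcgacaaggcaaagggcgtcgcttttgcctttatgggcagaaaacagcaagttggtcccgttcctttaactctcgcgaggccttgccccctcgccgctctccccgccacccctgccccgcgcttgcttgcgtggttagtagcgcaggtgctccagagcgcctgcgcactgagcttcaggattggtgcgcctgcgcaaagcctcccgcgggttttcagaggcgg
Mlh3: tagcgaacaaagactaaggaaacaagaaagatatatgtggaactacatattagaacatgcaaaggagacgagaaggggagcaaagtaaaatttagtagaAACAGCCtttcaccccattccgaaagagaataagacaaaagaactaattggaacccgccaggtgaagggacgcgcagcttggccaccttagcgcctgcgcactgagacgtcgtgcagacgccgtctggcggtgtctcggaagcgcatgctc

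RefSeq starts were matched for 6 of the 9 genes, with 8 windows in all, since Prdm9 and Mlh3 have 2 starts each. A MYB core was found in 4 of the 8 windows (the printed one of Prdm9, that of Msh5 and both of Mlh3, which overlap and hold the same match), where 27.7% of 32851 promoter windows of the same length held one. The E2F site was found in 2 of the 8 (the printed window of Prdm9 and that of Msh5), where 3.82% of all windows held one, and the E-box CACGTG in none of the 8, where 6.02% of all windows held one. The other Prdm9 window, chr17:15563332-15563581 (minus), held none of the 3 motifs. The GC content of the printed windows was 60.8% for Prdm9, 68.8% for Dmc1, 63.2% for Spata22 and 48.8% for Mlh3, against a median of 52.4% over all windows. The letters alone describe these windows and say nothing of which factor was bound in these testes.

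The series asks which testis transcripts differ between Tmc7 knockout and heterozygous mice. For recombination the data show no gene past the threshold. By limma on log2(FPKM + 1), with Benjamini-Hochberg adjustment over all 19168 genes tested, 0 of the 9 passed in either direction (adjusted p from 0.868 to 0.997), and 0.00% of all genes did. At an unadjusted p under 0.05, 0 of the 9 were counted, against 741 genes (3.87%) of all tested. All 9 passed the filter on low values. The largest difference was that of Meiob, at -0.29 on the log2(FPKM + 1) scale with a standard error (SE) of 0.13. On this scale 7 of the 9 had a 95% interval within 0.5 on either side of 0. That count includes Prdm9, at a mean of 1.11 FPKM, whose interval is narrowed by the added 1. Its SE was 0.14 here, but 0.24 when 0.1 was added in place of 1 and 0.23 by limma-voom on recovered reads. The SE of Dmc1, Msh5 and Tex11 also rose, from 0.10, 0.11 and 0.11 here to 0.14, 0.14 and 0.145 by limma-voom. The count of 7 is therefore for this scale alone.

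**Figure D1:**
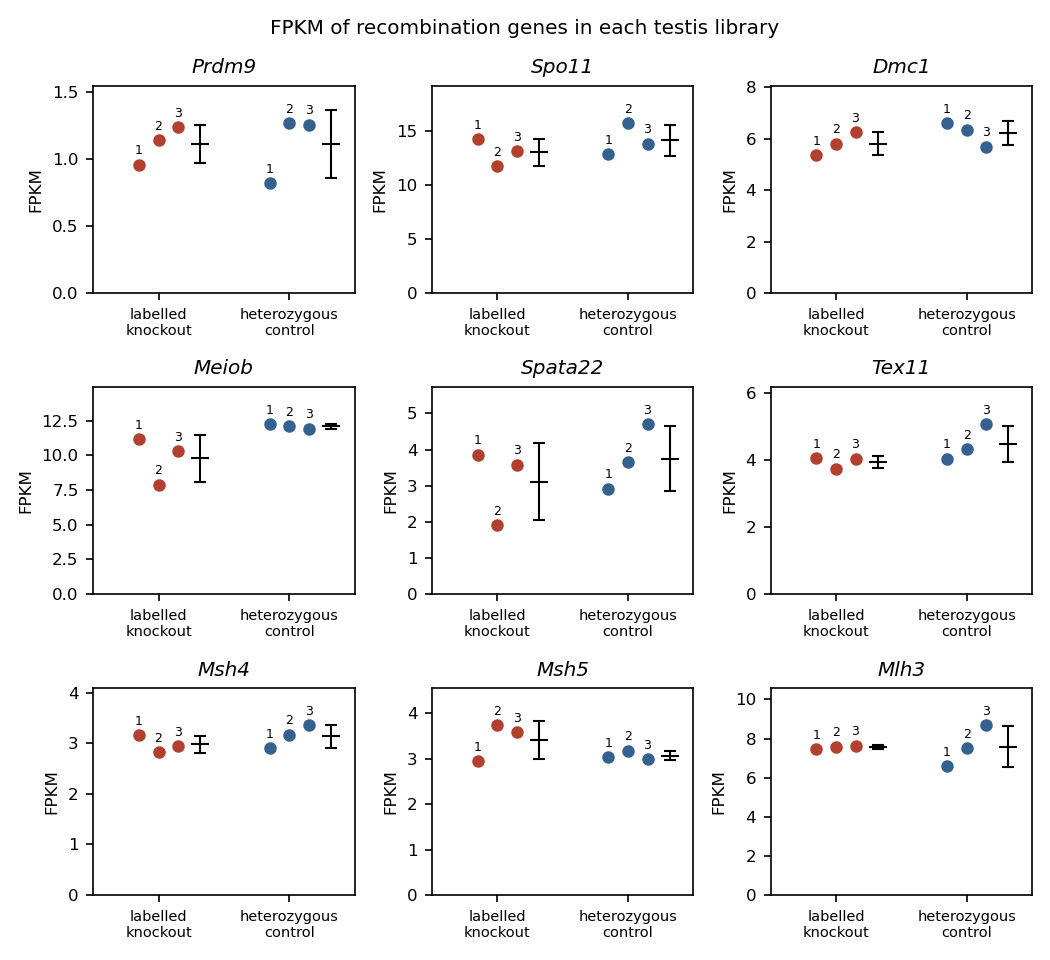
FPKM of the 9 recombination genes (y axes, linear from 0) in each library, with libraries labelled knockout in red and heterozygous controls in blue, points numbered by library and bars giving the mean and SD of 3 libraries. The groups overlap for every gene shown except Meiob, and library 2 labelled knockout is the lowest point for Meiob (7.89 FPKM) and Spata22 (1.90 FPKM).

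The group means of Prdm9 and Spo11, which place and make the breaks, differed by less than the SD of either group. Prdm9, on chromosome 17 from 15543079 to 15564354, was the least abundant of the 9, with 0.957, 1.14 and 1.24 FPKM in the libraries labelled knockout and 0.818, 1.27 and 1.26 FPKM in controls. The lowest library was control 1, and the 3 values labelled knockout lay inside the control range. Its log2 difference was 0.003 (SE 0.14, limma adjusted p = 0.997). Those values rest on 78, 85 and 104 reads in the libraries labelled knockout and 58, 101 and 104 in controls, so counting alone gives a spread of 10.6% of the mean, beside an observed 12.8% in the libraries labelled knockout and 22.96% in controls.

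Spo11, the break-making enzyme, on chromosome 2 from 172977700 to 172993576, was the most abundant, with 14.2, 11.7 and 13.1 FPKM in the libraries labelled knockout and 12.8, 15.7 and 13.8 FPKM in controls. The groups overlapped, with library 2 labelled knockout the lowest and control 2 the highest. The log2 difference was -0.11 (SE 0.11, 95% interval from -0.37 to 0.15, limma adjusted p = 0.868). Spo11 had 796 to 1054 reads in the libraries labelled knockout and 828 to 1139 in controls. The gene length behind its FPKM was 3921 bases, whereas the principal GENCODE transcript has 13 exons and 1709 bases, and the same reads over that shorter length would give a higher FPKM.

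Among the strand-exchange genes, the means of Dmc1 differed by less than the SD of either group, and Meiob and Spata22 had lower means in the libraries labelled knockout. Dmc1, on chromosome 15 from 79561497 to 79605109, had 5.36, 5.80 and 6.26 FPKM in the libraries labelled knockout, against 6.59, 6.34 and 5.69 FPKM in controls. Library 3 labelled knockout exceeded control 3, so the groups overlapped. The log2 difference was -0.08 (SE 0.10, limma adjusted p = 0.879).

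Meiob, whose protein carries OB folds that hold single-stranded DNA, lies on chromosome 17 from 24804382 to 24839787 by the deposited table, which differs from GENCODE M21 for this gene. It had 11.2, 7.89 and 10.3 FPKM in the libraries labelled knockout, against 12.2, 12.1 and 11.9 FPKM in controls. All 3 values labelled knockout lay below the control values, the 1 such gene of the 9, where 4.41% of all genes tested lay lower without overlap. The means were 9.79 ± 1.70 FPKM in the libraries labelled knockout and 12.09 ± 0.164 FPKM in controls (SD, n = 3 each). Its log2 difference was -0.29 (SE 0.13, 95% interval from -0.59 to 0.01, limma unadjusted p = 0.0562, adjusted p = 0.868). It was -0.16 without library 2 labelled knockout and -0.39 without library 1, with adjusted p from 0.200 to 0.9999 over the 17 alternative settings. The control spread of 1.35% was below the 5.41% that counting alone would give at its mean read number.

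Spata22, the partner of MEIOB, on chromosome 11 from 73329741 to 73346044, was the most variable of the 9. It had 3.86, 1.90 and 3.58 FPKM in the libraries labelled knockout, against 2.91, 3.65 and 4.70 FPKM in controls. Library 2 labelled knockout was the lowest and control 3 the highest, and the other 4 libraries were interleaved. Its log2 difference was -0.23 (SE 0.23, 95% interval from -0.77 to 0.32, limma adjusted p = 0.868), and it was 0.01 without library 2 labelled knockout. Only 42 to 93 reads in the libraries labelled knockout and 61 to 115 in controls stood behind it. The level is also uncertain because 79.98% of the 31-base words of its transcripts occur in other genes. The gene that shares the most words is Gm49340, a gene model that overlaps Spata22 and reached at most 0.016 FPKM. No source used here says how the authors assigned shared reads.

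None of the 4 crossover genes passed the test, and the groups overlapped for each. Tex11, a gene of the X chromosome from 100838648 to 101059667, had 4.04, 3.74 and 4.03 FPKM in the libraries labelled knockout, against 4.03, 4.32 and 5.06 FPKM in controls. Control 3 stood above the other 5, and the groups met at control 1. The log2 difference was -0.14 (SE 0.11, limma adjusted p = 0.868), and -0.07 without control 3.

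Msh4 and Msh5 encode the partners of a clamp that slides on joint molecules. Msh4, on chromosome 3 from 153857149 to 153906138, had 3.17, 2.83 and 2.95 FPKM in the libraries labelled knockout, against 2.90, 3.17 and 3.36 FPKM in controls. Msh5, on chromosome 17 from 35028605 to 35046745, had 2.95, 3.74 and 3.58 FPKM in the libraries labelled knockout, against 3.04, 3.18 and 2.99 FPKM in controls. Libraries 2 and 3 labelled knockout were thus the highest of the 6 for Msh5, and library 1 labelled knockout the lowest. The log2 differences were -0.06 (SE 0.10) for Msh4 and 0.12 (SE 0.11) for Msh5 (limma adjusted p = 0.911 and 0.868).

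Mlh3, the endonuclease subunit, on chromosome 12 from 85234520 to 85270599, had 7.46, 7.59 and 7.62 FPKM in the libraries labelled knockout, against 6.57, 7.50 and 8.67 FPKM in controls. The libraries labelled knockout all lay between controls 1 and 3. The log2 difference was 0.003 with a 95% interval from -0.26 to 0.26 (limma adjusted p = 0.997), and 817 to 1259 reads per library stood behind it.

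**Figure D2:**
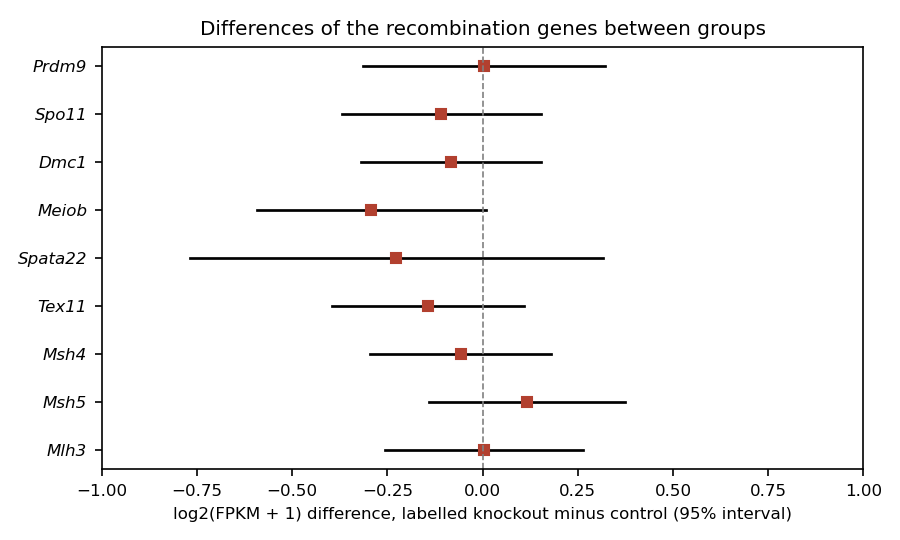
Difference between the group labelled knockout and heterozygous controls on the log2(FPKM + 1) scale (x axis) for each of the 9 genes (rows), with squares for the limma estimate and lines for its 95% interval. Every interval includes 0; that of Meiob reaches from -0.59 to 0.01 and that of Spata22, the widest, from -0.77 to 0.32.

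Ordered by mean FPKM over the 6 libraries, the genes ran from Spo11 (13.6) through Meiob (10.9), Mlh3 (7.57), Dmc1 (6.01), Tex11 (4.20), Spata22 (3.43), Msh5 (3.24) and Msh4 (3.06) to Prdm9 (1.11). On the same scale 77.5% of the genes tested had a lower mean than Spo11 and 19.4% a lower mean than Prdm9. Of the 8 steps in this order, Dmc1 over Tex11 and Msh4 over Prdm9 had ranges that did not meet. Those 2, with Spo11 over Meiob, Meiob over Mlh3 and Tex11 over Spata22, held in 6 of 6 libraries. Mlh3 over Dmc1 held in 5, and Spata22 over Msh5 and Msh5 over Msh4 in 4, so that these neighbours were not separated beyond their spread. The order also depends on the gene length behind the FPKM. In a comparison added after the data were seen, the same reads were set over the length of the principal GENCODE transcript. Msh4 (6895 bases in the table, 3325 in the transcript) came to 6.35 and Msh5 (5526 and 2886 bases) to 6.21. Both then lay above Tex11 (4.69) and Spata22 (3.43). The places of Spo11, Meiob, Mlh3, Dmc1 and Prdm9 by mean were as before. Meiob (10.5) and Mlh3 (10.47) were then almost level, however, and Dmc1 (6.59) was close to Msh4. The counts of libraries above hold for the deposited gene lengths only. Sequence shared with other genes was at most 6.08% of 31-base words for the 8 genes other than Spata22. Other entries that overlap Dmc1, Mlh3, Prdm9, Msh4 and Tex11 reached at most 2.44 FPKM in any library.

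Partner genes can be read as ratios of their FPKM within a library. The Meiob to Spata22 ratio was 2.90, 4.15 and 2.88 in the libraries labelled knockout and 4.21, 3.32 and 2.54 in controls. The group means of the ratio were 3.31 ± 0.730 and 3.36 ± 0.835 (SD, n = 3 each, labelled knockout and control), so they differed by less than the SD of either group. The Msh4 to Msh5 ratio was 1.08, 0.757 and 0.822 in the libraries labelled knockout and 0.955, 0.999 and 1.12 in controls. Libraries 2 and 3 labelled knockout had the lowest ratios and library 1 lay within the control range, so the groups overlapped, with means of 0.885 ± 0.168 in the libraries labelled knockout and 1.03 ± 0.0882 in controls (SD, n = 3 each).

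The rest of the pathway was read from a list of 69 genes in 6 roles, of which 66 were tested; Mei4, Pms1 and 1700028K03Rik, the older symbol of Spo16, fell under the filter. None passed the test (0 higher and 0 lower, adjusted p from 0.868 to 0.999). The list had 31 higher and 35 lower values and a median log2 difference of -0.01, beside -0.08 for the 9 genes and -0.01 for all genes tested. That balance turned with the scaling: 29 of the 66 were lower (median 0.01) after quantile normalization and 28 (median 0.02) with scaling by read totals, and 26 were lower (median 0.04) without control 3. In 6 of the 66 (9.09%), all libraries labelled knockout lay above all controls, against 4.15% of all genes tested, and in 0 did they lie below, against 4.41%. These 6 were Cxxc1, Rec114, Rpa2, Xrcc3, Ccnb1ip1 and Slx1b.

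Hotspot factors had 5 higher and 1 lower value of 6. Cxxc1, which reads CpG islands and binds PRDM9, was at 33.8 ± 2.59 FPKM in the libraries labelled knockout and 29.5 ± 0.971 FPKM in controls (SD, n = 3 each). Hells, a chromatin remodeller that works with PRDM9, was at 5.48 ± 0.630 and 6.31 ± 0.451 FPKM, and the histone methyltransferase gene Ehmt2 was the most abundant of the role, at 98.1 ± 10.95 and 89.7 ± 5.82 FPKM (labelled knockout and control, SD, n = 3 each). The limma adjusted p of Cxxc1 and Hells was 0.868.

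Among break-forming partners of SPO11, Rec114 had the smallest unadjusted p of the list (0.0489, limma adjusted p = 0.868). It had 1.41, 1.31 and 1.57 FPKM in the libraries labelled knockout, against 0.9997, 1.18 and 0.734 FPKM in controls, a log2 difference of 0.30 (SE 0.13). Only 34, 29 and 39 reads in the libraries labelled knockout and 21, 28 and 18 in controls stood behind these values. Counting alone gives a spread of 18.8% of the mean at that depth. Ccdc36, now named Iho1, was at 6.15 ± 0.666 FPKM in the libraries labelled knockout and 6.89 ± 0.998 FPKM in controls, and Ankrd31 at 11.1 ± 1.07 and 11.5 ± 0.467 FPKM (SD, n = 3 each). In break signalling and end resection, Rbbp8 was at 14.1 ± 0.342 and 14.4 ± 0.757 FPKM, Nbn of the MRN complex at 11.3 ± 1.55 and 12.2 ± 0.836 FPKM, and the exonuclease gene Exo1 at 1.99 ± 0.156 and 1.82 ± 0.177 FPKM, in the same order of groups.

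The strand-exchange role was the largest, with 12 higher and 15 lower values of 27. Rpa2, a subunit of the general single-strand-binding protein RPA, had 7.21, 7.05 and 8.05 FPKM in the libraries labelled knockout, against 6.11, 5.30 and 6.83 FPKM in controls (log2 difference 0.26, SE 0.11, limma adjusted p = 0.868). Xrcc3, a homologous recombination repair gene, was at 2.85 ± 0.372 FPKM in the libraries labelled knockout and 2.28 ± 0.0894 FPKM in controls. Psmc3ip, which encodes the HOP2 cofactor of DMC1, was the most abundant, at 52.9 ± 11.7 and 53.0 ± 7.67 FPKM (labelled knockout and control, SD, n = 3 each).

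Of the genes that designate crossovers, Ccnb1ip1, which encodes HEI10, was at 4.45 ± 0.0869 FPKM in the libraries labelled knockout and 3.81 ± 0.338 FPKM in controls, Cntd1 at 12.2 ± 1.05 and 13.2 ± 1.14 FPKM, and Prr19 at 43.7 ± 1.54 and 45.5 ± 4.11 FPKM (SD, n = 3 each). Of those that resolve joint molecules, Slx4, a nuclease scaffold, was at 37.2 ± 2.78 FPKM in the libraries labelled knockout and 35.3 ± 1.70 FPKM in controls. The nuclease genes Slx1b and Mus81 averaged 1.60 ± 0.338 and 10.4 ± 0.213 FPKM in the libraries labelled knockout and 1.19 ± 0.126 and 9.11 ± 1.41 FPKM in controls (SD, n = 3 each). The limma adjusted p of these 6 genes lay between 0.868 and 0.910.

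**Figure D3:**
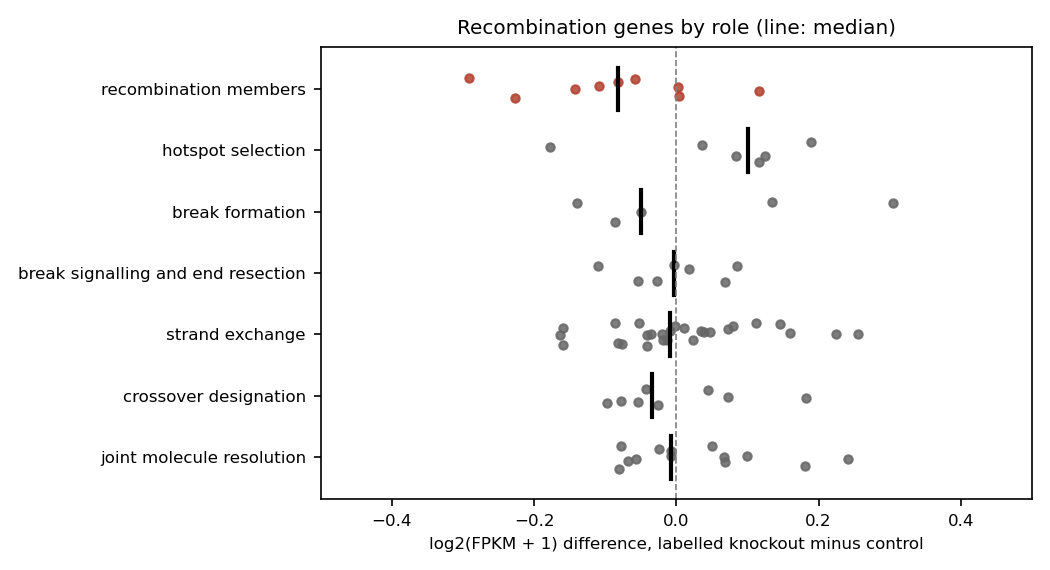
Log2(FPKM + 1) difference between the group labelled knockout and controls (x axis) for the 9 recombination genes (red) and the 66 other tested genes of the pathway (grey) by role (rows), with a black line at the median of each row. Medians lie between -0.08 for the 9 genes and 0.10 for hotspot selection, with Meiob the farthest to the left (-0.29) and Rec114 the farthest to the right (0.30).

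The 9 genes did not move as a block across libraries. Of the 6 libraries, number 2 labelled knockout was the lowest for 5 of them (Spo11, Meiob, Spata22, Msh4 and Tex11) and the highest for Msh5, and control 3 was the highest for 4 (Spata22, Msh4, Mlh3 and Tex11). Averaged over the 9 and centred on the 6 libraries, their log2 level was -0.01, -0.14 and 0.02 in the libraries labelled knockout and -0.06, 0.07 and 0.11 in controls. The level of the other pathway genes ran from -0.01 to 0.03 in the libraries labelled knockout and from -0.04 to 0.02 in controls. It averages 66 genes rather than 9, and an average over more genes varies less. The 2 ranges therefore do not show that the 9 varied more than the rest of the pathway.

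In a bulk testis library, fewer cells of a type and less RNA per cell cannot be told apart, so cell type lists are given beside these levels. Early spermatocyte markers were at 0.07, -0.17 and -0.12 in the libraries labelled knockout and at 0.10, 0.02 and 0.10 in controls, on the same centred log2 scale, with library 2 labelled knockout lowest, as for the 9 genes. Their median log2 difference was -0.18, with 14 of 16 values lower and 0 past the threshold. The synaptonemal complex genes Sycp1 and Sycp3, both on the lower side, averaged 59.7 ± 6.16 and 55.9 ± 7.21 FPKM in the libraries labelled knockout and 71.1 ± 4.94 and 64.1 ± 2.37 FPKM in controls (SD, n = 3 each). The 2 higher values were those of Rec8 and Stag3. These averaged 25.1 ± 2.95 and 106.0 ± 6.87 FPKM in the libraries labelled knockout and 22.0 ± 2.68 and 100.4 ± 3.15 FPKM in controls. Later spermatocyte markers were at 0.10, -0.11 and -0.13 in the libraries labelled knockout and at 0.08, 0.05 and 0.02 in controls.

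The elongating spermatid and Sertoli lists spanned a wider range of levels over the 6 libraries than the 9 genes did. Elongating spermatid markers were at 0.33, -0.34 and -0.62 in the libraries labelled knockout and at 0.47, 0.29 and -0.12 in controls, and Sertoli markers at -0.16, 0.19 and 0.31 in the libraries labelled knockout and at -0.19, -0.14 and -0.005 in controls. Of the 15 Sertoli markers 14 were tested and none was at 0 in all libraries, with summed levels of 542.2 to 729.6 FPKM in the libraries labelled knockout and 550.6 to 587.7 FPKM in controls. The 13 elongating spermatid markers were all tested, with sums of 9418 to 18090 FPKM in the libraries labelled knockout and 12510 to 21240 FPKM in controls. Libraries 2 and 3 labelled knockout, where Msh5 was highest, were also those of highest Sertoli and leukocyte level (leukocyte 0.18 and 0.34, against -0.12 in library 1 labelled knockout and -0.20 to -0.002 in controls). The part of cell mix in the values of Meiob, Spata22 and Msh5 was not tested.

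**Figure D4:**
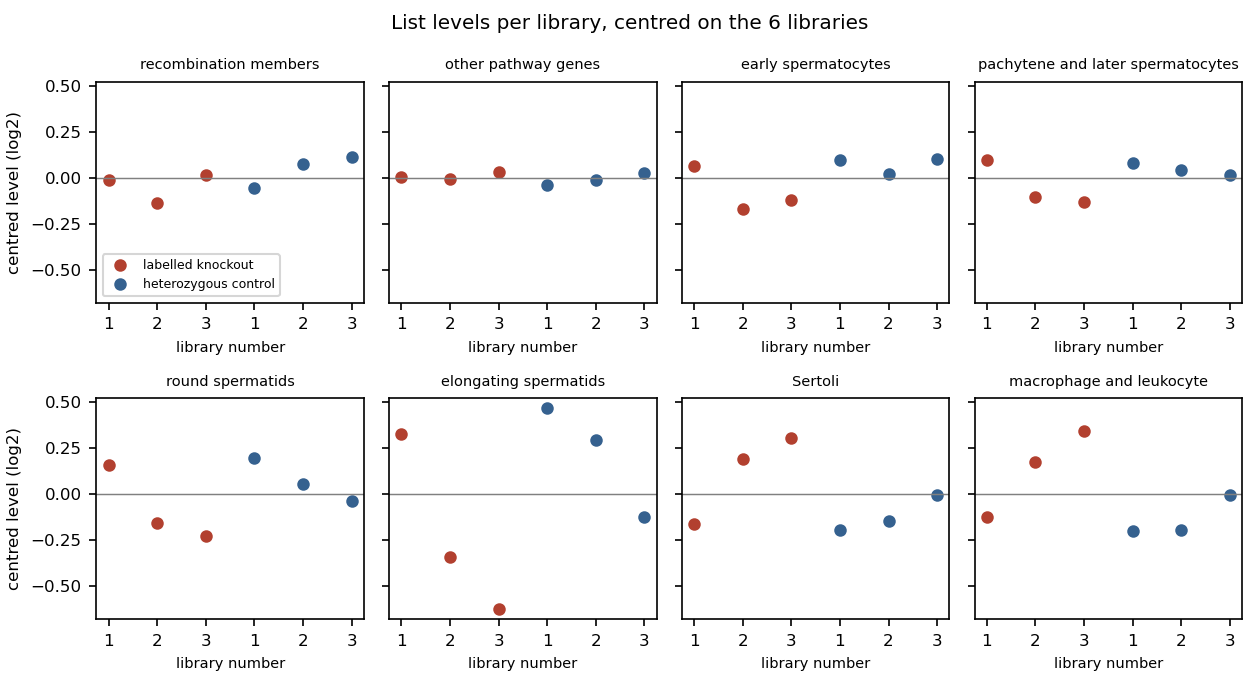
Mean centred log2(FPKM + 1) level (y axis) of the 9 recombination genes, the other pathway genes and 6 cell type marker lists in each library (x axis), red for libraries labelled knockout and blue for controls. The 9 genes span -0.14 to 0.11, whereas elongating spermatid markers span -0.62 to 0.47.

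Genes with the most similar profile were sought among 10011 other protein-coding genes averaging at least 2 FPKM, by the root-mean-square distance of their centred log2 values from the average of the 9 over 6 libraries. The nearest were Zfp322a, Prpf4b and Grk5, at distances of 0.02 each. The nearest of the 9 to their own average was Msh4, at 0.04, and 43 of the other genes lay closer than that. Because that average spanned only -0.14 to 0.11, genes that vary little also lie near it, and 1366 of the 10011 lay within 0.1. A small distance therefore does not show that a gene varied together with the 9.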

How the data were processed

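Testis RNA of 3 libraries labelled Tmc7 knockout and 3 labelled heterozygote was extracted with Trizol and made into libraries with a SMARTER mRNA-Seq kit, per the labels' protocols. The authors deposited FPKM per gene with gene length and position; the build, per the submitters' processing notes, is GRCm38 (mm10). No aligner, counter, filter or strand setting is given in the sources used here. Of 54409 gene IDs shared with GENCODE M21, 98.26% had identical coordinates; Meiob, at 1703 bases in the table and 1774 in its principal transcript, was the 1 member that did not.

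All genes averaging 0.5 FPKM or more were fitted on log2(FPKM + 1), which understates changes of low genes, with limma 3.58.1 in R 4.3.3 (lmFit, eBayes with trend, group as the only term, Benjamini-Hochberg adjusted p under 0.05, two-sided). FPKM times gene length gave whole reads for 100% of values above 0 (tolerance 0.001 reads, the library size being implied by the values). These reads were used for limma-voom (mean of at least 10 reads) as an alternative. Separately, a check was run on simulated data in which 200 genes were changed. Simulated data need not share the spread of these libraries. The check therefore does not show which differences could be detected in them. Other alternatives were pseudocounts of 0.1 and 0.01, other filters, median-of-ratios, quantile and read-total scaling, a replicate block, no trend, array weights and each library left out. Counting spreads cover counting error only.

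The 9 members and the lists (69 pathway genes, 6 matched by an older symbol, and 115 marker entries in 10 lists) were chosen with earlier results of these data known. Named were every member, Tmc7, 2 genes of smallest p and the most abundant gene per role, and the 3 nearest profiles. Genes without overlap between groups, Sycp1, Sycp3, Rec8 and Stag3 were named after their values were seen. Marker lists for spermatogonia, round spermatids, Leydig, peritubular myoid and endothelial cells gave differences in centred log2 level, labelled knockout minus control, of 0.06, -0.15, -0.12, 0.20 and 0.08. Sequence shared with other genes was measured as 31-base words of GENCODE M21 transcripts on either strand, for the 9 members and Tmc7 alone.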

Additional observations from a re-analysis of the deposited data

How the results depend on the processing

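The count of members past the threshold was 0 in all 17 alternative settings (Prdm9 was not tested in 1 of them, the filter at a mean of 2 FPKM), and that of the other pathway genes was 0 as well. Over all genes the count was 0 in each setting except limma-voom on recovered reads, which called 1 gene, not a member. Leaving out 1 library at a time gave 0 genes, 0 members and 0 pathway genes each time, a member median from -0.116 to -0.0298, a difference in the log2 Meiob to Spata22 ratio from -0.199 to 0.166 and in the log2 Msh4 to Msh5 ratio from -0.377 to -0.123. The directions of Spo11, Dmc1, Meiob, Msh4, Msh5 and Tex11 were kept in 17 of 17 settings, but their sizes were not: with 1 library left out they ranged from -0.17 to -0.03 for Spo11, from -0.14 to -0.03 for Dmc1, from -0.39 to -0.16 for Meiob, from -0.10 to -0.02 for Msh4, from 0.07 to 0.20 for Msh5 and from -0.20 to -0.07 for Tex11. Array weights gave -0.0051 for Mlh3 and -0.0183 for Prdm9, and with 1 library left out the differences ranged from -0.0834 to 0.093 for Mlh3, from -0.101 to 0.0574 for Prdm9 and from -0.365 to 0.0074 for Spata22. The sign changed without library 2 labelled knockout for Spata22 and for Prdm9 (-0.0067), without library 3 labelled knockout for Prdm9 (-0.0398) and Mlh3 (-0.0026), without control 1 for both of these and without control 2 for Mlh3 (-0.0004), where the differences with all libraries were 0.0031 for Mlh3 and 0.0035 for Prdm9. With the replicate number as a block, 0 genes passed and the member median was -0.08. Libraries of the same number correlated in their deviations at 0.286, 0.0413 and 0.198. Libraries 1 and 3 labelled knockout correlated best with the control of their own number, and library 2 with control 3 (0.170). Deviations from the mean of so few libraries are not independent, so these correlations cannot settle whether the numbers are pairs. The labels state no pairing, and the main fit did not treat the numbers as pairs. Among the 9 members, depth limits Prdm9 and Spata22 most, at 42 to 115 reads per library.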
